A study of Homo sapiens with 3 samples.

Results

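The liver-enriched transcription factors examined here are 8 genes of the hepatocyte regulatory network, namely HNF4A, FOXA1, FOXA2, FOXA3, CEBPA, ONECUT1, ONECUT2 and NR5A2. Every probe set annotated to 1 of these symbols alone was taken, which gave 17 probe sets of 7 genes out of 54675 probe sets and 19775 named genes on the array. No probe set was matched to HNF4A in the annotation used, so this gene is not analysed here. The study set MHCC97Low, a cell line from a human hepatocellular carcinoma with metastatic ability, beside sublines of it resistant to cisplatin (MHCC97L/CisR) or to doxorubicin (MHCC97L/DoxR), both DNA-damaging chemotherapy drugs. All 3 lines were grown in DMEM with 10% FBS and had no treatment at harvest. Each line had 1 array, made from a single RNA preparation, and the drug doses and length of selection are not used here. Without replicates no test was possible, and no value carries an error or can be compared with variation among cultures.

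Hepatocyte identity is held by a small set of transcription factors that bind each other's genes and the promoters of secreted liver proteins. The FOXA proteins are forkhead pioneer factors that open chromatin at liver genes during development. HNF4A and NR5A2 (also called LRH-1) are nuclear receptors, CEBPA is a basic leucine zipper protein that drives differentiation and metabolic genes, and ONECUT1 (HNF6) and ONECUT2 are cut-homeodomain proteins of early liver and bile duct development. In hepatocellular carcinoma, loss of some of these factors is known to go with dedifferentiation.

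Values are MAS5 signals on a linear scale. Signals at or under 76.9, the median of all values pooled and called the floor here, were raised to it before a log2 difference was taken, and a difference against a value at the floor is a bound. A 2-fold difference was the threshold for a call, and the brightest probe set stood for its gene, with the others given beside it. Signal comes from bulk RNA, so fewer cells of a type and less RNA per cell cannot be told apart. Signals of different probe sets are not on a common scale of transcript number, so each probe set was compared with itself across arrays. Where 3 signals are given together, the first is from the parental line, the second from the cisplatin-resistant and the last from the doxorubicin-resistant subline.

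The arrays had median signals of 73.3 to 79.2, and 11879 to 12107 genes lay above the floor. None of 12 housekeeping genes reached 2-fold in any comparison. Of 48 matched secreted and metabolic hepatocyte genes, 29 lay above the floor in the parental and also in the cisplatin-resistant array. In the doxorubicin-resistant array 26 did, and 16 were at or under the floor on all 3. Beside them, 12083, 12107 and 11879 of all 19775 genes lay above the floor, so these counts do not mark hepatocyte character. Of 6 leukocyte markers 0 to 2 lay above the floor per array, of 7 endothelial markers 2, and of 10 fibroblast and stellate markers 2 to 5. The signal summed over the same fibroblast and stellate probe sets on each array was 934 in the parental array against 3616 (cisplatin-resistant) and 1731 (doxorubicin-resistant), of which 1 probe set of lumican (LUM) made up 258, 2632 and 1167. That LUM probe set was 3.35 and 2.18 higher on the log2 scale in the sublines, while another gave at least 0.07 in the cisplatin-resistant array. COL1A1, the main fibroblast collagen chain, had 309, 511 and 242. The part of these markers in the results below was not tested.

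Of the 17 probe sets of the liver factors, 10 lay above the floor on all 3 arrays, 2 on some and 5 on none. At the level of genes, 6 factors could be compared. In the cisplatin-resistant array 2 of the 6 were lower than in the parental array and none was higher, beside 5.41% of all 12710 compared genes called in either direction (2.83% higher, 2.58% lower). In the doxorubicin-resistant array 2 of the 6 were higher and none lower, beside 5.72% of 12605 genes (2.98% higher, 2.74% lower). By probe sets, 4 of 11 compared were lower in the cisplatin-resistant array, 3 of them of ONECUT2, beside 2.48% of all probe sets with 1 gene. In the doxorubicin-resistant array 3 of 12 were higher, 2 of them of ONECUT2, beside 2.62%. Probe sets of 1 gene are not independent measurements, so these shares are no test. Both comparisons use the same parental array. The median log2 difference of the 6 genes was 0.02 and 0.12, against 0.02 and 0.00 over all genes. The called members were CEBPA and ONECUT2 in the cisplatin-resistant subline, and ONECUT2 and NR5A2 in the doxorubicin-resistant subline.

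**Figure D1:**
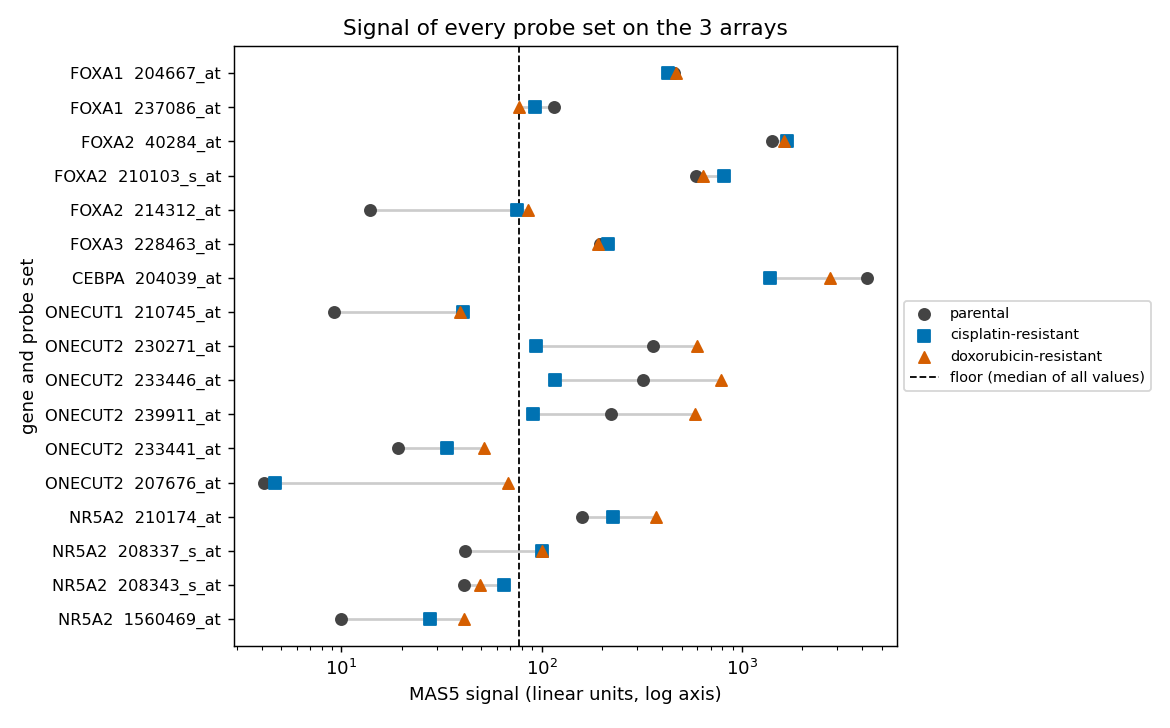
MAS5 signal (log axis) of the 17 probe sets on the array of each line, with the floor of 76.9 as a dashed line and grey bars from the lowest to the highest array. The 3 brighter ONECUT2 probe sets are spread widest among the probe sets above the floor, with the cisplatin-resistant array lowest and the doxorubicin-resistant array highest, whereas the symbols of FOXA3 and of the brighter FOXA1 probe set nearly coincide.

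The FOXA pioneer factors differed little between the lines. FOXA1 had signals of 457, 429.9 and 470.4 by probe set 204667_at. The dimmer FOXA1 probe set 237086_at read 116, 92.9 and 77.1, the last of these just above the floor. Both FOXA1 probe sets stayed within 2-fold in every comparison, with log2 differences from parental of -0.09 and -0.32 in the cisplatin-resistant and 0.04 and -0.59 in the doxorubicin-resistant array. FOXA2, which cooperates with FOXA1 in opening liver chromatin, read 1417, 1675 and 1627 by probe set 40284_at. Its second probe set, 210103_s_at, read 590.5, 818 and 639.5. The sublines were thus 1.08-fold to 1.39-fold above parental for FOXA2 in these probe sets. The third FOXA2 probe set, 214312_at, read 13.9, 75.9 and 85.4, and only the doxorubicin-resistant array was above the floor, by 1.11-fold. FOXA3, a FOXA paralog also expressed in adult liver, read 196, 214 and 191 by its single probe set. The largest FOXA difference by a probe set measured above the floor on both arrays was 1.51-fold, for the dimmer FOXA1 probe set in the doxorubicin-resistant array.

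CEBPA, the leucine zipper factor that activates albumin and metabolic liver genes, was lower in the cisplatin-resistant subline. Its single probe set read 4199.7, 1382 and 2765. The parental array was thus highest, and the doxorubicin-resistant array lay between the other two. The cisplatin-resistant signal was 3.04-fold lower than parental (log2 difference -1.60) and the doxorubicin-resistant signal 1.52-fold lower (-0.60). The sublines differed from each other by 2.00-fold (log2 1.00), which lies at the call threshold. In the comparison of the sublines, 6.36% of 12604 genes were called, with 3.05% higher and 3.3% lower in the doxorubicin-resistant array. Of the 6 factors, 2 were higher there, CEBPA and ONECUT2. By probe sets 4 of 12 were, 3 of them of ONECUT2, beside 2.75% of all probe sets. With 1 probe set, no second measurement of CEBPA on these arrays was used.

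Of the other C/EBP genes measured, CEBPB, CEBPD and CEBPG were within 2-fold of parental in both sublines, and CEBPE was under the floor on all arrays. CEBPB, which replaces CEBPA in acute-phase and stress responses, had log2 differences of -0.21 and 0.44 from parental in the cisplatin- and doxorubicin-resistant arrays. CEBPG, a dimerisation partner that lies near CEBPA on chromosome 19, had -0.61 and 0.56 and was higher by 1.17 in the doxorubicin-resistant than in the cisplatin-resistant array. The divergent transcript CEBPA-DT had -0.08 and -0.24. Around CEBPA, the 15 compared genes on each side had a median difference of -0.17 in the cisplatin-resistant array, with 19 of the 30 below parental, 2 of them at least 2-fold, and 1 lower than CEBPA. That gene was its direct neighbour LRP3, a lipoprotein receptor family member, at -1.87 there and -1.90 in the doxorubicin-resistant array. Beside CEBPG, several near genes on the other side were also low in the cisplatin-resistant array. These were PEPD (-0.85), KCTD15 (-1.06), LSM14A (-0.65) and GARRE1 (-0.64), while CHST8 among them stood at 0.02. On the side of LRP3, SLC7A9 and CEP89 were above parental in that array, at 0.82 and 0.99. Between the sublines KCTD15 (1.01) and LSM14A (0.95) differed about as much as CEBPA (1.00), whereas LRP3 (-0.03) did not. With the median of the 30 subtracted, CEBPA stood at -1.43 and -0.64 from parental and at 0.90, under 2-fold, between the sublines. That median covers a wider stretch than these nearest genes, and a regional cause was not tested.

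The CEBPA promoter is shown because this factor had the lowest log2 difference from parental of the 6 genes in the cisplatin-resistant array, by brightest probe sets. The window runs from 250 bases before to 50 bases after the start, on the minus strand of chr19:33302485-33302784 (GRCh38.p14, RefSeq), and is 80.7% G or C. None of the motifs searched, listed with the target promoters, was found in it, which says only that those letters are not in this window.
CEBPA: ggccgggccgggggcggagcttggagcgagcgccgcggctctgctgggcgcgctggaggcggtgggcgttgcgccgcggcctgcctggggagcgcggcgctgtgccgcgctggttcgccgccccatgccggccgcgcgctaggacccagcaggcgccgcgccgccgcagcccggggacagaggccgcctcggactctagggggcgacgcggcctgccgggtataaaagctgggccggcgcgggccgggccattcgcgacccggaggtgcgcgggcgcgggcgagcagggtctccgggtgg

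ONECUT2 was the only 1 of the 6 factors called in opposite directions in the sublines. Probe set 233446_at read 321, 116 and 783. Probe set 230271_at read 358, 93.4 and 596, and probe set 239911_at read 223, 90.55 and 585. In all 3 probe sets the cisplatin-resistant array was lowest, close to the floor, and the doxorubicin-resistant array was highest. The cisplatin-resistant signals were 2.47-fold to 3.84-fold lower than parental. The doxorubicin-resistant signals were 1.66-fold to 2.62-fold higher than parental, and 2 of the 3 probe sets reached 2-fold. Between the sublines, the 3 probe sets gave 6.38-fold, 6.74-fold and 6.46-fold. The remaining ONECUT2 probe sets, 233441_at and 207676_at, were at or under the floor on every array, the highest reading being 68.2 for the latter in the doxorubicin-resistant array.

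The share of genes with 3 or more probe sets past 2-fold, as ONECUT2 had, was counted over the array. It is given only for the 2 comparisons in which ONECUT2 met that rule. In doxorubicin-resistant against parental, only 2 of its probe sets did. Probe sets of 1 gene on 1 array are not independent measurements, so these shares are no test. Of 2919 genes with 3 or more compared probe sets, 20 (0.685%) had at least 3 of them 2-fold lower in the cisplatin-resistant array. Between the sublines, 25 of 2891 (0.865%) had at least 3 of them 2-fold higher in the doxorubicin-resistant array. Over 11967 genes compared in all 3 ways, 7 (0.0585%) were 2-fold lower in the cisplatin-resistant and 2-fold higher in the doxorubicin-resistant array. Besides ONECUT2 these were ALB, IGFBP1, ORM1, CLDN1, ELMO1 and PTGIS. Both differences are taken from the same parental array.

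Genes around ONECUT2 on chromosome 18 were also lower in the cisplatin-resistant array. Of the 30 nearest compared genes, 29 were below parental in the cisplatin-resistant array, 7 of them at least 2-fold, with a median log2 difference of -0.76 (-0.72 over the 175 compared genes of the chromosome). ONECUT2, at -1.47, was lower than 26 of the 30. With the neighbour median subtracted its cisplatin-resistant difference was -0.70, under 2-fold. In the doxorubicin-resistant array the same neighbourhood had a median of 0.16, and ONECUT2, at 1.29, was higher than all 30 neighbours and stood at 1.13 after subtraction. Between the sublines it stood at 1.84 after subtraction, from a neighbour median of 0.91. ATP8B1, a phospholipid flippase gene of hepatocyte bile canaliculi at the fourth place downstream, had log2 differences of -1.02 and 0.74.

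The ONECUT2 promoter is given as the sequence of the member that varied most. It lies on the plus strand of chr18:57435124-57435423 (GRCh38.p14, RefSeq), is 68.0% G or C and held none of the motifs searched.
ONECUT2: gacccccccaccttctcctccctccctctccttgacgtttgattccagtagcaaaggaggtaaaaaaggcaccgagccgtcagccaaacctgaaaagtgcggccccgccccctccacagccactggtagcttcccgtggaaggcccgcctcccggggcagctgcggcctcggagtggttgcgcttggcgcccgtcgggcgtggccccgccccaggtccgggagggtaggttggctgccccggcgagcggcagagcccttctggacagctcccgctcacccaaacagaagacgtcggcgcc

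ONECUT1, the paralog that activates FOXA2 and HNF4A in the developing liver, was not measurable by its single probe set. It read 9.25, 40.3 and 39.1, all under the floor, and no fold is given.

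NR5A2, a nuclear receptor of bile acid and cholesterol genes, was higher in the doxorubicin-resistant subline by 1 of its probe sets. Probe set 210174_at read 159, 226 and 373. The parental array was lowest and the doxorubicin-resistant array highest, 2.35-fold above parental, while the cisplatin-resistant array was 1.43-fold above it. Probe set 208337_s_at read 41.7, 100.01 and 100.2. By that probe set at least 1.30-fold separated parental from the sublines, which differed from each other by 1.00-fold. The other NR5A2 probe sets, 208343_s_at and 1560469_at, stayed under the floor on all arrays, at 41.1, 65.1 and 49.5 and at 9.92, 27.8 and 41.1. The call in the doxorubicin-resistant array therefore rests on 210174_at, and the median over the gene's probe sets gave a log2 difference of 0.19 instead of 1.23.

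The neighbours of NR5A2 on chromosome 1 went the other way in the doxorubicin-resistant array. Of the 30 nearest compared genes 25 were below parental, with a median of -0.52, and all 30 were lower than NR5A2. With that median subtracted, NR5A2 stood at 1.75 above parental and, from a neighbour median of -0.58, at 1.30 between the sublines. In the cisplatin-resistant array the neighbour median was 0.07.

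**Figure D2:**
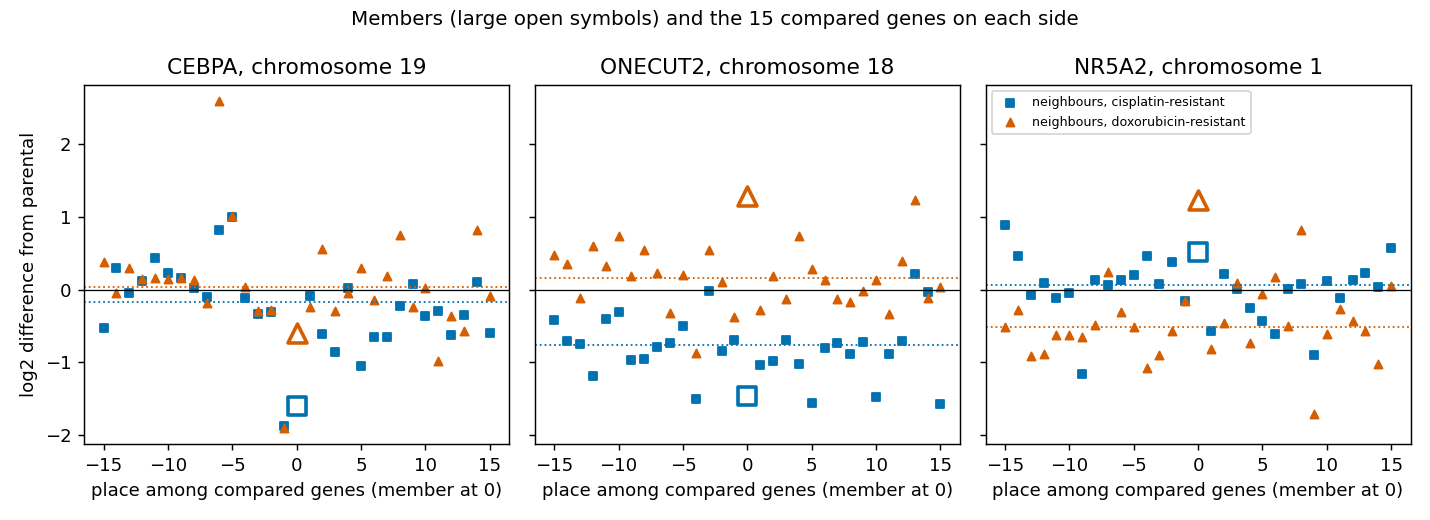
Log2 difference from parental of CEBPA, ONECUT2 and NR5A2 (large open symbols at place 0) and of the 15 compared genes on each side on the chromosome, in the cisplatin-resistant (squares) and doxorubicin-resistant (triangles) arrays. Dotted lines are the medians of the neighbours, at -0.76 around ONECUT2 in the cisplatin-resistant array and at -0.52 around NR5A2 in the doxorubicin-resistant array. CEBPA lies below a neighbour median of -0.17 in the cisplatin-resistant array. Near it LRP3, KCTD15 and PEPD are also low there, whereas CEP89 and SLC7A9 are high.

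The genes whose pair of differences from parental was nearest to that of each called factor were sought among genes above the floor on all 3 arrays in several probe sets. Nearness was the Euclidean distance in the 2 log2 differences, which rest on only 3 arrays and share the parental one. For CEBPA, the nearest of 5474 candidates were FAM210A, OTUD5 and CCDC22, at distances of 0.06 to 0.07. For NR5A2 they were GSAP, CCDC15 and LINC00662, at 0.03 to 0.13. For ONECUT2 the nearest of 5473 candidates, STK26, GLIPR1 and its chromosome 18 neighbour ATP8B1, stood farther off, at 0.56 to 0.71. STK26 had differences of -0.91 and 1.31. Genes outside the candidates could lie nearer. ELMO1, which was not a candidate, had -1.27 and 1.23, against -1.47 and 1.29 for ONECUT2.

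Other regulators of the hepatocyte network were read next, beside all genes. Of 65 further liver transcription factors, nuclear receptors and coregulators, 54 were matched to probe sets and 11 are not analysed here, NR1H4 and NR1I2 among them. In the cisplatin-resistant array 44 of 47 compared were within 2-fold, 1 was higher and 2 were lower, with a median log2 difference of -0.01, beside 12022 of 12710 genes within 2-fold over the array. In the doxorubicin-resistant array 43 of 48 were within 2-fold, 3 were higher and 2 lower, with a median of 0.20, beside 11884 of 12605. These counts are by brightest probe sets. Other probe sets of genes counted as within 2-fold reached -2.85 (NFIB), -1.20 (PPARD), 1.19 (PPARA) and 1.05 (KLF6) in the cisplatin-resistant array. In the doxorubicin-resistant array another PPARD probe set reached -1.09. The hepatoblast factors GATA4, GATA6 and HHEX had differences of -0.20, 0.10 and -0.54 in the cisplatin-resistant array. The same genes had 0.31, 0.58 and 0.01 in the doxorubicin-resistant array.

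PROX1, a homeobox corepressor of NR5A2 and HNF4A needed for liver outgrowth, was higher in both sublines. Its brightest probe set read 88.3, 212 and 298, with log2 differences of 1.27 and 1.75. Other PROX1 probe sets gave 0.28 to 0.87 in the former and 0.62 to 1.40 in the latter, bounds against a parental value under the floor. NR0B2 (SHP), the bile acid induced corepressor that is an NR5A2 target, was under the floor in the parental and cisplatin-resistant arrays at 32.5 and 56.5. It read 157 in the doxorubicin-resistant array, at least 1.03 higher on the log2 scale. MLXIPL, the glucose-sensing factor ChREBP, was 1.47 higher in the doxorubicin-resistant array. ATF5, a stress-responsive factor abundant in liver, had a log2 difference of -1.01 in the cisplatin-resistant array by its brightest probe set and of -0.86, under 2-fold, by another. HLX, a homeobox gene of liver growth, was 1.10 lower in the doxorubicin-resistant array. The corepressor NRIP1 went from 784 to under the floor in both sublines (at most -3.35). PPARGC1A, the fasting coactivator of hepatic glucose output, was under the floor on all arrays.

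Textbook targets of the factors were then read beside them. The 5 target lists hold 72 distinct genes, of which 62 were matched and 27 also belong to the list of secreted and metabolic hepatocyte genes. Of 36 compared in the cisplatin-resistant array, 8 were lower, 2 higher and 26 within 2-fold, with a median log2 difference of -0.25 against 0.02 over all genes. Of 35 compared in the doxorubicin-resistant array, 1 was lower, 8 higher and 26 within 2-fold, with a median of 0.02 against 0.00. Over all genes, 2.58% were lower and 2.83% higher in the cisplatin-resistant array, and 2.74% and 2.98% in the doxorubicin-resistant array.

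The lists of the 5 factors or families share genes, so their counts overlap. FOXA targets had the lowest median in the cisplatin-resistant array, -1.81 over 8 compared genes, with 6 lower and 1 higher. Of these genes ALB, TF, TTR, TAT, APOB and SERPINA1 are also on the CEBPA or HNF4A list. The FOXA genes themselves were within 2-fold, and the part of any factor in these differences was not tested. CEBPA targets had a median of -0.40 over 12 genes, with 4 lower and 1 higher. HNF4A targets had -0.39 over 17 genes, with 4 lower and 1 higher, and ONECUT targets -0.41 over 6 genes, with 2 lower. NR5A2 targets had 0.10 over 10 genes, with 1 lower and 1 higher. In the doxorubicin-resistant array the medians were -0.41 for FOXA targets, -0.01 for CEBPA targets, 0.02 for HNF4A targets, -0.28 for ONECUT targets and 0.01 for NR5A2 targets. The counts there were 3 higher and 1 lower, 4 and 1, 2 and 1, 0 and 1, and 2 and 0. Between the sublines, FOXA targets were higher in the doxorubicin-resistant array in 6 of 7 compared genes, and none was lower. The other lists also had no lower gene. Higher were 6 of 15 HNF4A, 4 of 11 CEBPA, 2 of 10 NR5A2 and 1 of 5 ONECUT targets. Over all genes, 3.05% were higher and 3.3% lower there.

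Single targets showed how unlike the sublines were. Albumin (ALB), the main plasma protein and a target of CEBPA and FOXA factors, read 1545, 3.17 and 3115 by its brightest probe set. It was thus under the floor in the cisplatin-resistant array (at most -4.33) and 2.02-fold above parental in the doxorubicin-resistant array. Its other measured probe sets gave at most -2.34 and at most -1.40 in the former and 0.18 to 0.95 in the latter. IGFBP1, an insulin-repressed FOXA target that binds IGF, read 2427, 608 and 6495, and the acute-phase protein ORM1, a CEBPA target, read 207, under the floor and 905. Both lay lowest in the cisplatin-resistant and highest in the doxorubicin-resistant array, the order that ONECUT2 showed. Neither is on the ONECUT target list, and a link to ONECUT2 was not tested.

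A second group was lower in both sublines. Transferrin (TF), the plasma iron carrier, read 4925, 234 and 404 by its brightest probe set (others at most -1.36 in both sublines). The fibrinogen chains FGB and FGG read 1977, 291 and under the floor, and 1004 with both sublines under the floor. Another group was lowest in the cisplatin-resistant array and lay within 2-fold of parental in the doxorubicin-resistant array, as CEBPA did. Of its genes named here only SERPINA1 is on the CEBPA target list, and a link to CEBPA was not tested. This group held AFP, the fetal albumin paralog (-2.18 and -0.81), SERPINA1, the antitrypsin gene (-1.63 and -0.42), TTR, the thyroxine carrier transthyretin (-1.40 and -0.39), and AGT, angiotensinogen (-1.92 and 0.14). Against these, APOB, the apolipoprotein of very-low-density lipoprotein, was under the floor in the parental array and read 386 and 816 in the sublines (at least 2.33 and at least 3.41). MTTP, which loads lipid onto APOB, had -0.51 and 1.37.

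Over the whole list of secreted and metabolic hepatocyte genes, 11 of 32 compared were lower and 1 was higher in the cisplatin-resistant array, with a median of -0.58. Over all genes 2.58% were lower and 2.83% higher there, with a median of 0.02. In the doxorubicin-resistant array 6 of 31 were lower and 7 higher, with a median of -0.39. Over all genes 2.74% were lower and 2.98% higher in that array, with a median of 0.00. For FGA and APOH, which were called by their brightest probe set, another probe set gave only -0.43 (a bound) and -0.32 in the cisplatin-resistant array. Higher genes in the doxorubicin-resistant array included the tetraspanin-like membrane proteins TM4SF4 (2.69) and TM4SF5 (1.46), the urea cycle enzyme ASS1 (1.45) and coagulation factor F5 (1.09, with 0.79 and 1.45 by other probe sets). Lower genes there included APOC1 (-1.80) and HPD, a tyrosine catabolic enzyme (at most -1.32).

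**Figure D3:**
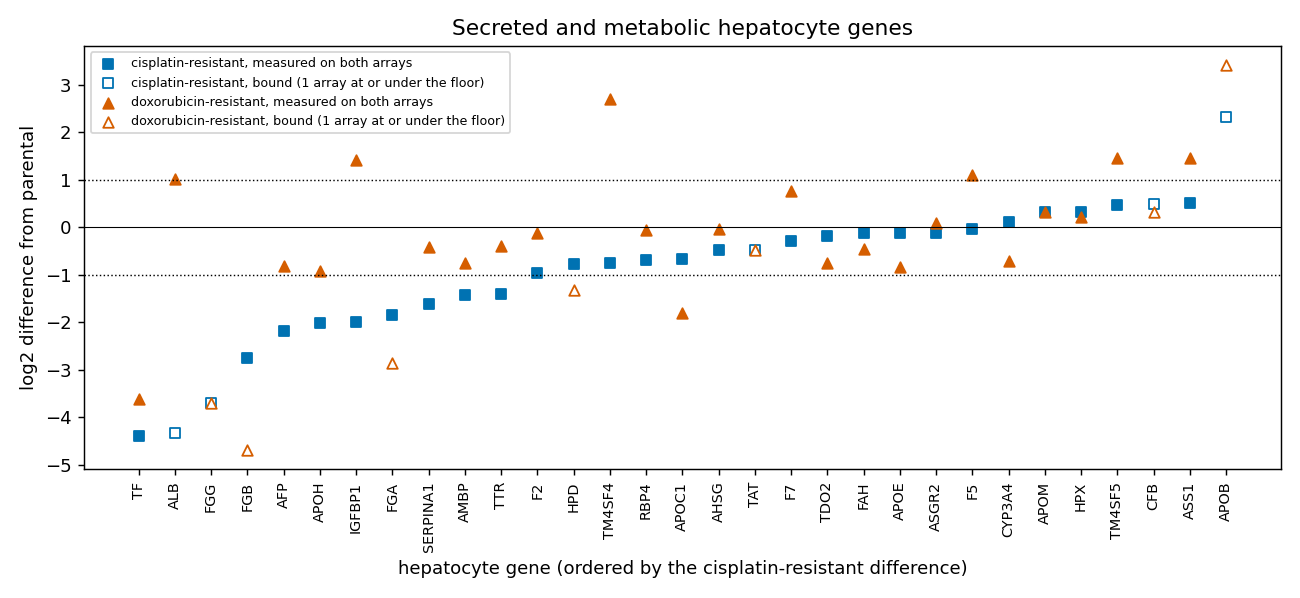
Log2 difference from parental of the 31 secreted and metabolic hepatocyte genes compared in both sublines, ordered by the cisplatin-resistant value. Squares are the cisplatin-resistant and triangles the doxorubicin-resistant array, open symbols are bounds, and dotted lines mark 2-fold; TF and the fibrinogen chains are low in both sublines, while ALB and IGFBP1 are low only in the cisplatin-resistant array.

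**Figure D4:**
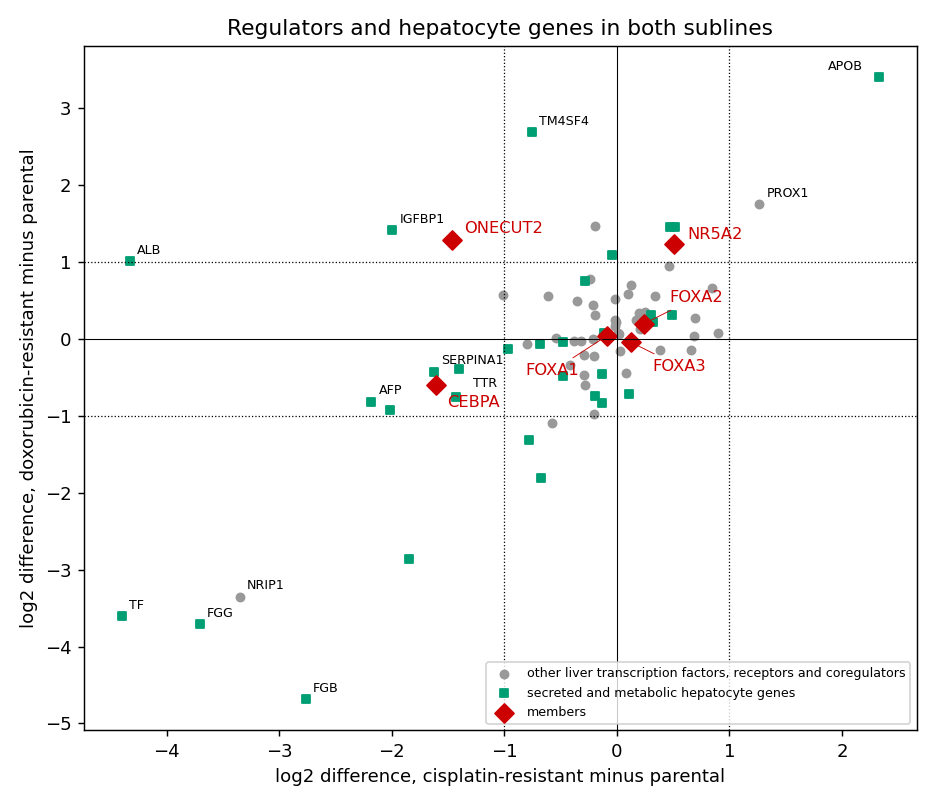
Log2 difference from parental in the cisplatin-resistant array (horizontal) and the doxorubicin-resistant array (vertical) for the 6 compared factors (diamonds), 47 other regulators (circles) and 31 hepatocyte genes (squares), with 2-fold as dotted lines; some squares, such as ALB, FGG and APOB, are bounds. ONECUT2 lies in the upper left with IGFBP1 and ALB, CEBPA lies beside SERPINA1 and TTR, and the FOXA genes lie near the origin.

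Promoters of the hepatocyte genes and of the factors were searched for short motifs of the factors on both strands. The motifs were TGTTTAC and TGTTTGC for FOXA, TTGCGCAA and TTGCNNAA for C/EBP proteins, CAAAGTCCA and CAAAGGTCA for HNF4, ATTGATT and ATCAATA for ONECUT, and TCAAGGTCA and CAAGGTCA for NR5A2. Every match to the first C/EBP or NR5A2 motif is also a match to the second. The motif TTGCNNAA occurred in 12 of 48 windows of hepatocyte genes and in 10.5% of all 35116 windows. TGTTTGC occurred in 16.7% and 3.89%. The remaining motifs were in at most 4.17% of the hepatocyte windows and in 0.151% to 3.42% of all windows. The median share of G and C was 54.2% in the hepatocyte windows and 58.7% in all. Of 9 hepatocyte genes with a window that were lower in the cisplatin-resistant array, 5 held TTGCNNAA and 3 held TGTTTGC. Of 17 compared and not lower, 3 and 1 did, with median shares of G and C of 49.5% and 59.3%. Among the factors themselves, 9 windows of 7 genes were given. TTGCNNAA was in none of them, and TGTTTAC was found in a window of NR5A2 and TGTTTGC in that of FOXA1. A window of HNF4A held overlapping matches to ATTGATT and ATCAATA.

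Windows of 4 hepatocyte genes that were lower in the cisplatin-resistant array are shown because they carry such matches. The matches are to the C/EBP motif alone in ALB, FGB and TF and to other motifs in SERPINA1. Another window of TF and another of SERPINA1 held no match to any motif searched. The windows of FGG and APOH, also lower in that array, held none either. All are from RefSeq on GRCh38.p14, run from 250 bases before to 50 bases after a start, and have motif matches in capitals. ALB lies on the plus strand of chr4:73404037-73404336, with a C/EBP match starting 125 bases before the start. FGB lies on the plus strand of chr4:154562761-154563060, with a C/EBP match at 132 bases. TF lies on the plus strand of chr3:133746143-133746442, with a C/EBP match at 98 bases. SERPINA1 lies on the minus strand of chr14:94388553-94388852, with a FOXA match at 108 bases and an NR5A2 match at 84 bases.
ALB: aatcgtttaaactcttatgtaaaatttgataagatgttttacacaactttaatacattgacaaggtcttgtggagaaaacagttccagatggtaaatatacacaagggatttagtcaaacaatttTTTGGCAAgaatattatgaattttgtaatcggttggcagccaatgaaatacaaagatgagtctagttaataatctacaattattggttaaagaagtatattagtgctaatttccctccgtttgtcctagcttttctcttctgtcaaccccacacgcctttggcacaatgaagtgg
FGB: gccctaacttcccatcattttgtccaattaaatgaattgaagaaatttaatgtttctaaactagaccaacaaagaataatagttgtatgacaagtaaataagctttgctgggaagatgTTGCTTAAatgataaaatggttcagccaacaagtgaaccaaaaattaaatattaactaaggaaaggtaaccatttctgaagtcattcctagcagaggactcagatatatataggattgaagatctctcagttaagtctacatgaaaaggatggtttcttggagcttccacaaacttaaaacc
TF: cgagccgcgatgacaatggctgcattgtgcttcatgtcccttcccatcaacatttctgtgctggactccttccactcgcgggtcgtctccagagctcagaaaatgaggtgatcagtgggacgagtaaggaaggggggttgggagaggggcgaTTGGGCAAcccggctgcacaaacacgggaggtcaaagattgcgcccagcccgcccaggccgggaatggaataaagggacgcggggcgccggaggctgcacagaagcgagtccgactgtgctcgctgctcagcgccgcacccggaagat
SERPINA1: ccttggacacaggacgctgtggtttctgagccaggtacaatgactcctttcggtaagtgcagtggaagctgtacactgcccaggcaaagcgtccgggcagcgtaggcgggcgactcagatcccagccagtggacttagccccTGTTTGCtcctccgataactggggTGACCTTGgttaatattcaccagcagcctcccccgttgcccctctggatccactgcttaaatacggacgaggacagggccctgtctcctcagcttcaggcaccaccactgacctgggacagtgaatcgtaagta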

How the data were processed

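Total RNA of 3 lines was hybridised to Affymetrix U133 Plus 2.0 arrays, 1 per line, per the labels. The deposited values are a linear intensity (signal) per probe set made with MAS5, per the submitters' processing notes; no version of it is stated in the sources used. After trimming 2% at either end, the mean signal was 500.1 on all arrays. MAS5 subtracts mismatch signal, so low values are noisy.

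Of 54675 probe sets, 41097 had 1 gene symbol, 1801 had several (unused), 62 were controls and 11721 were unnamed. Some controls carry a gene symbol and are counted in both classes. Symbols were updated by Entrez identifier to RefSeq (GRCh38.p14), with 41043 matched. Values were raised to the floor of 76.9, then log2 differences were taken, called at 2-fold, with no test, since 1 array per group leaves no residual degree of freedom; the number of arrays limits the precision. A gene was compared when its brightest probe set lay above the floor on at least 1 array. Neighbours are the 15 compared genes on each side by RefSeq order.

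The members, the 14 gene lists and the settings were chosen with earlier results of these data known. The text names all members, 19 fixed genes where matched, and up to 6 genes of a list past 2-fold. Others were added after their values were seen. Near CEBPA these were LRP3, CEBPA-DT, PEPD, KCTD15, LSM14A, GARRE1, CHST8, SLC7A9 and CEP89. Elsewhere they were CEBPD, CEBPE, NFIB, PPARA, PPARD, KLF6, COL1A1, APOC1, APOH, F5, HPD, SOX9, TM4SF5 and the genes called in opposite directions. Calculations used Python 3.11.15, numpy 2.4.6 and pandas 2.3.3, and were tested on simulated arrays. A planned motif pair is not reported here. Settings were varied for the floor, scaling, probe set choice, neighbours and threshold.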

Additional observations from a re-analysis of the deposited data

Results flagged for a closer look

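ONECUT2, ALB, IGFBP1 and ORM1 are listed because the 2 sublines moved in opposite directions from the parental array, each by at least 2-fold. The doxorubicin-resistant array exceeded the cisplatin-resistant array by 2.75 on the log2 scale for ONECUT2, by at least 5.34 for ALB, by 3.42 for IGFBP1 and by at least 3.56 for ORM1. With 1 array per line the difference was not tested, and both directions depend on the same parental array. In the doxorubicin-resistant array ALB lay under 2-fold at 0.998 after centring on expressed genes, 0.99 with an offset of 50, 0.90 with neighbours subtracted and 0.57 by the median over probe sets. IGFBP1 lay under 2-fold in both sublines by the median over its probe sets, at -0.998 and 0.71, since its other probe set was under the floor on all arrays.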

How the results depend on the processing

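The number of called genes moved most with the floor and the threshold. For cisplatin-resistant against parental, 360 genes were higher and 328 lower; a floor at the 25th percentile gave 1016 and 1022, at the 75th percentile 105 and 124, and a 1.5-fold call 1180 and 1048. For doxorubicin-resistant against parental, 376 and 345 became 912 and 1180, 160 and 99, and 1145 and 1083. Between the sublines, 385 and 416 became 941 and 1248, 183 and 138, and 1149 and 1247. The median over probe sets lowered all these counts, to 240 and 255, 264 and 243, and 272 and 277 in the same order of comparisons. The 2 factors called in each comparison became 1, 0 and 1 at the 75th percentile floor, in the same order. At the 25th percentile floor they became 3, 3 and 2. The added factor was ONECUT1, under the main floor on all arrays and higher in both sublines at the lower floor. With a 1.5-fold call the counts were 2, 3 and 3. For cisplatin-resistant against parental, the count was 1 with neighbours subtracted, when ONECUT2 stood at -0.70. For doxorubicin-resistant against parental, the median over probe sets left 1, with NR5A2 at 0.19. Between the sublines, the offset of 50 and quantile normalization each left 1, since CEBPA lay at 0.98 and 0.998, under 2-fold; with neighbours subtracted the count stayed at 2 because NR5A2 (1.30) came in as CEBPA (0.90) dropped out. No called value changed sign under the 9 alternatives. Of 35 log2 differences of factor probe sets, 5 of the 18 still compared at the 75th percentile floor fell under 2-fold, all of ONECUT2. At the 25th percentile floor 3 of the 35 came to reach 2-fold, of NR5A2 208337_s_at and FOXA2 214312_at. No paired analysis was possible because each group is 1 array. Signals near the floor limit ONECUT1, the third FOXA2 probe set and 3 of the 4 NR5A2 probe sets.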

Other observations

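Forkhead genes outside the FOXA group and markers of the bile duct lineage were also read. Of 17 compared forkhead genes, 16 were within 2-fold in each subline, so 1 was called in each (5.88%, beside 5.41% and 5.72% of all genes). FOXD1 was 1.59 lower on the log2 scale in the cisplatin-resistant array, and FOXL1 1.54 higher in the doxorubicin-resistant array. Between the sublines FOXF2, a forkhead gene of gut and liver mesenchyme, was 1.19 lower in the doxorubicin-resistant array, and FOXD1 was 1.49 higher there. Of 7 compared cholangiocyte and progenitor markers, 2 were lower in the cisplatin-resistant array, beside 2.58% of all genes. These were KRT7, a bile duct keratin (-1.69), and CD24, a surface glycoprotein of progenitor cells (-1.44). None of the 7 reached 2-fold in the doxorubicin-resistant array. A second KRT7 probe set gave -0.59 in the cisplatin-resistant array, and 5 further CD24 probe sets gave -2.01 to -1.40. SOX9, the bile duct transcription factor, had 0.66 and -0.15. Both KRT7 and CD24 were lowest in the cisplatin-resistant array, as ONECUT2 was, but stood at 0.03 and 0.02 in the doxorubicin-resistant array.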
